A study of Mus musculus with 9 samples.

Results

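The genes described here are 33 mouse genes of homologous recombination and DNA damage repair: BRCA proteins and their partners, strand exchange factors, sensors and resection factors of broken DNA ends, nucleases that cut DNA junctions, Fanconi anemia proteins, checkpoint kinases and the mismatch repair gene Msh6. Members were found by symbol: a probe set counted when the array's gene table gave it 1 gene symbol and that symbol was on the list. By this rule 31 of the 33 genes had a probe set, with 67 probe sets in all, and Xrcc2 and Rbbp8 were not analysed here. Expression was measured in total RNA of mouse normal thymus, of thymus tumor and of thymus tumor labelled as resistant to XIST, a noncoding RNA known for shutting down 1 of the X chromosomes of female cells. There were 3 groups of 3 Affymetrix Mouse430_2 arrays. The labels give no genotype, strain, driver of the tumors, age or treatment, and whether replicate arrays stem from different animals is not said. The p-values below therefore reflect no more than the array-to-array spread, which could be technical.

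Homologous recombination repairs a broken chromosome by copying the intact sister chromatid, so it works mainly in cells that are replicating or have replicated their DNA. The broken ends are sensed and trimmed, BRCA1 and PALB2 bring in BRCA2, and the trimmed strand is then paired with the matching sequence in steps that involve RAD54 and XRCC3. The Fanconi anemia proteins use the same machinery at DNA crosslinks, and the kinases ATM, ATR, CHK1 and CHK2 stop the cell cycle while repair goes on. Thymocytes divide rapidly and also break their own DNA when they assemble antigen receptor genes, and mice without Atm or without mismatch repair are known for thymic lymphomas.

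Values are MAS5 signals in arbitrary units, 1 per probe set and array, and a gene with several probe sets is represented by the brightest. A gene was tested when its probe set reached the array's median signal on at least 3 of the 9 arrays. Of the 31 genes, 30 passed, among 11671 genes tested in all. Bard1, the partner of BRCA1, did not pass, with signals of 6.37 to 17.7 over the 9 arrays. Changes are differences in log2 signal with their standard error (SE) from limma, a linear model fitted to all genes and all 9 arrays. A change is called when its p-value, adjusted over the 11671 genes by the Benjamini-Hochberg method, is under 0.05. Every tested member reached the array median on all 9 arrays.

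The arrays differed in a way that crosses the groups. Poly-A spike-in controls, bacterial transcripts added to an RNA sample before labelling, gave a mean signal of 141 to 237 on 5 arrays (normal thymus 2 and 3, tumor 2 and 3, resistant tumor 3) and of 2.01 to 2.95 on the other 4. Median signals were 13.8 to 17.8 on the arrays with spike-in signal and 23.6 to 25.8 on those without it. The Actb 3' to 5' signal ratio, a measure of RNA integrity, was 1.63 to 3.16, highest on tumor 2 (3.16) and resistant tumor 3 (2.64). Where a fit with the 2 sets of arrays as a block (the spike-in block) changed the call of a repair gene, its adjusted p is given beside the gene. The part of the spike-in sets and of RNA integrity in each result was otherwise not tested. In whole tissue, fewer cells of a type and less RNA per cell cannot be told apart, and markers of cell types differed. Summed signals of 7 thymic epithelial markers were 6755 to 7241 in normal thymus, 93.7 to 227 in tumor and 108 to 151 in resistant tumor, and 7 of 7 fell in tumor and 6 of 7 in resistant tumor. Psmb11, a thymoproteasome subunit of cortical epithelium, lay at 0.48 to 4.12 in the tumor groups. Sums of 6 T lineage markers overlapped between the groups (9731 to 12770), with 1 called higher and 2 lower in each tumor group, whereas 6 markers of immature thymocytes that carry both CD4 and CD8 summed to 12640 to 14320 in normal thymus and 4720 to 6354 in the tumor groups. Among them, Cd4, Cd8a and Cd8b1 lay at 2.52 to 24.2 in the tumor groups against at least 968 in normal thymus, and Rag2, which with Rag1 cuts antigen receptor genes, lay at 58.0 to 158 against 604 to 660.5. Rag1 was also called lower in both tumor groups (-0.54 and -0.57) but was at least 1656 on every array, and Dntt, which adds bases at receptor gene joints, was not called. Fibroblast markers summed to 1039 to 1130 in normal thymus and 2181 to 6255 in the tumor groups, with 3 of 6 called higher in each and 1 called lower in resistant tumor. Endothelial markers summed to 303.5 to 321 and 402 to 737, with 3 of 5 called higher and 1 lower in each. B cell markers summed to 177.5 to 183 in normal thymus and 10.6 to 44.4 in the tumor groups, with 3 of 3 tested called lower in tumor and 1 of 3 in resistant tumor. Erythroid markers summed to 58.2 to 83.0 and 2.65 to 24.5, with the 1 tested called lower in each. Sums of macrophage markers overlapped between the groups (857.5 to 1825). The part of these shifts in cell types in the results was not tested.

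In thymus tumor, 13 of the 30 repair genes rose against normal thymus and 1 fell. Over all genes tested, 23.3% were called higher and 19.1% lower, 42.4% in all. The rises were led by Brca1, with a 7.13-fold difference, followed by Brca2 (1.98-fold), Chek2 (1.79-fold), Rad54b (1.69-fold) and Xrcc3 (1.63-fold). The gene that fell was Msh6, the recognition subunit for base mismatches, which was 2.18-fold lower. In resistant tumor, 14 repair genes rose against normal thymus and 2 fell, Msh6 and the nuclease gene Mus81. The background there was 23.1% called higher and 20.2% called lower, 43.3% in all. Both comparisons use the same 3 normal thymus arrays, so they are not independent of each other. Between the tumor groups, 1 of the 30 genes differed: Brca1, 2.95-fold lower in resistant tumor. Of all genes, 0.231% were called lower and 0.129% higher there.

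The median change of the 30 genes was 0.36 in tumor and 0.49 in resistant tumor, against 0.05 and 0.06 over all genes tested. Within the arrays without spike-in signal the medians of the members were 0.50 and 0.56, and within those with it 0.36 and 0.33. Without spike-in signal, normal thymus 1 and tumor 1 stand alone for their groups, and with it resistant tumor 3 does. Array by array, the median of the members relative to the normal thymus mean lay at 0.31 to 0.50 in tumor and 0.36 to 0.53 in resistant tumor, and at -0.04 to 0.01 in normal thymus. The groups did not overlap for 16 members higher and 2 lower in tumor (background 30.1% and 25.2%) and for 17 higher and 2 lower in resistant tumor (background 28.9% and 25.7%). Setting all arrays to an equal median signal shifted every change against normal thymus by 0.19 in tumor and by -0.06 in resistant tumor. Under that scaling 3 members were called in tumor (Brca1, Chek2 and Msh6, in the same directions) and 2 in resistant tumor (Brca1 and Chek2). Calls over all genes then numbered 1266 higher and 990 lower in tumor, against 2714 and 2229 without it. In resistant tumor they numbered 868 higher and 1147 lower, against 2696 and 2353. With the spike-in block, the calls rose to 17 higher and 2 lower members in tumor (background 32.6% and 26.1%) and to 19 and 2 in resistant tumor (32.0% and 26.8%).

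**Figure D1:**
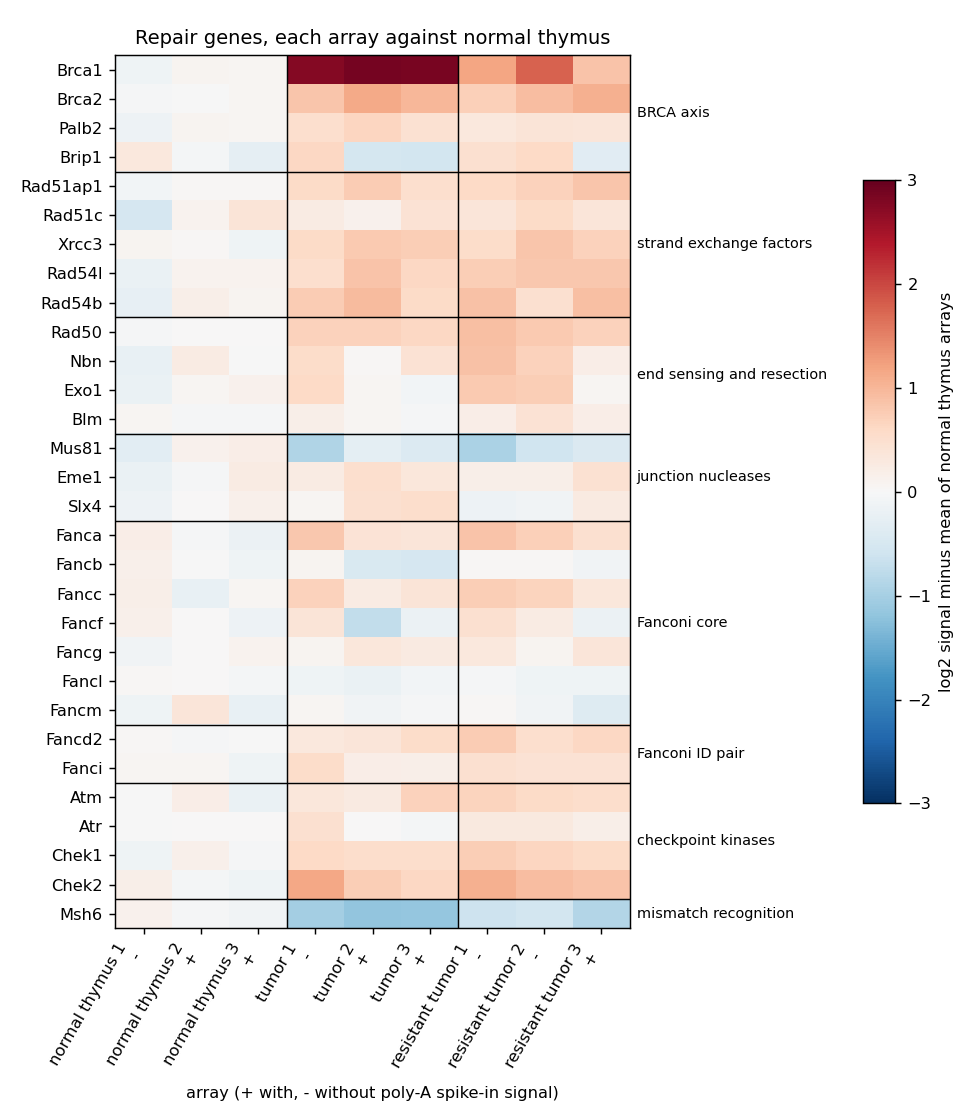
Log2 signal of each tested repair gene (rows, ordered by role) on each of the 9 arrays (columns) minus the gene's mean over the 3 normal thymus arrays; red is higher, blue lower, and + or - marks arrays with or without spike-in signal. Brca1 stands out on the 3 tumor arrays and is intermediate on the 3 resistant tumor arrays, and Msh6 is lower on all 6 tumor arrays.

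The start regions of the 4 genes with the largest differences named above that had a sequence in the table, Brca1, Brca2, Chek2 and Msh6, are shown because the results turn on these genes. Sequences are from RefSeq (GRCm38.p6), cover 250 bases before to 50 bases after the start, and were found for 26 of the 33 genes. Capitals mark words on either strand: E2F words, the sites of the factors that switch on genes for DNA synthesis (TTTCCCGC, TTTGGCGC, TTTCGCGC or TTTGCCGC), and CCAAT, the site of NF-Y. None of these words overlap each other in the sequences shown.
Brca1, chr11:101551906-101552205, minus strand: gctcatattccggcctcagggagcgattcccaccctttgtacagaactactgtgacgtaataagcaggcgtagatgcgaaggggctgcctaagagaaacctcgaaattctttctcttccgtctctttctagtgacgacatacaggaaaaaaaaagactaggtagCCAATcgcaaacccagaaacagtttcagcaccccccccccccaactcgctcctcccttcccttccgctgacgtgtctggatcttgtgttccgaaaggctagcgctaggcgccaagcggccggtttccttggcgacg
Brca2, chr5:150522371-150522670, plus strand: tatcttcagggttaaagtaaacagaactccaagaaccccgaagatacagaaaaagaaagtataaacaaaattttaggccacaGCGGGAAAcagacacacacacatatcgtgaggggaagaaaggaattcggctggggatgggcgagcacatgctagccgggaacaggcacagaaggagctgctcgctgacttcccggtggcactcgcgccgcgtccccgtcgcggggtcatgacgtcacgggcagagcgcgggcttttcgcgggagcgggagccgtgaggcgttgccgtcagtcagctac
Chek2, chr5:110839733-110840032, plus strand: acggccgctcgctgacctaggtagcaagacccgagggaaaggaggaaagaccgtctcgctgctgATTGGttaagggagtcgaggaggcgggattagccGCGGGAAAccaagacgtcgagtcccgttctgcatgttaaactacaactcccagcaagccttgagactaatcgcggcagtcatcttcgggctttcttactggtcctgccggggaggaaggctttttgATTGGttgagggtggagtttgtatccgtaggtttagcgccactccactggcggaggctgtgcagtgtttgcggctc
Msh6, chr17:87974800-87975099, plus strand: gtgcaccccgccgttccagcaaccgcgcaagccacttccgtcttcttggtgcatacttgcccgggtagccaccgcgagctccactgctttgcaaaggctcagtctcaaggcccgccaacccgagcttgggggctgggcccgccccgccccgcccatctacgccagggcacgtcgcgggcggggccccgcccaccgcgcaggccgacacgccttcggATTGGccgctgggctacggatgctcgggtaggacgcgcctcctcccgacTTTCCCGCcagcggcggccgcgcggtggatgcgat

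An E2F word was present in the start regions of 6 of the 26 genes (23.1%), against 2.26% of the 32851 start regions in the table, which were not matched for base composition and of which some genes have several. For every word, a member counted when any of its start regions held it, whereas the share over the table is per start region. The member and table shares are therefore not like for like. The 6 genes were Bard1, Brca2, Chek2, Fancg, Msh6 and Rad51c. They include Msh6, which fell, and Fancg and Rad51c, which were not called, and 2 of the 10 genes with a sequence that rose in tumor. The Brca1 window held none of the E2F words and 1 CCAAT word, at positions -86 to -82 from the start. In Brca2 the E2F word lay at positions -168 to -161, in Chek2 at -152 to -145, and in Msh6 at 15 to 22 after the start. CCAAT was present in 16 of the 26 (61.5%) against 37.4% of all start regions, most often in Xrcc3, with 6 matches. TTTGAA, the cell cycle homology word, was present in 2 of the 26 (7.69%) against 17.9%. A match is a description of the letters and no measurement of binding.

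Among BRCA1, BRCA2 and their partners, 3 of 4 tested genes rose in tumor and 2 of 4 in resistant tumor (23.3% and 23.1% over all genes). Brca1, whose protein directs broken ends toward recombination, had signals of 206, 237 and 236 in normal thymus, 1533, 1665 and 1635 in tumor and 514, 768 and 411 in resistant tumor. The groups did not overlap: every tumor array lay above every resistant tumor array, and every resistant tumor array above every normal one. The change was 2.83 ± 0.19 (SE) in tumor (limma adjusted p = 5.23e-06) and 1.27 ± 0.19 in resistant tumor (adjusted p = 0.000679). Within the arrays without and with spike-in signal it was 2.90 and 2.80 in tumor and 1.61 and 0.80 in resistant tumor. All 3 further Brca1 probe sets passed the filter. Fitted together with every probe set, 2 of them rose in tumor by 2.87 and 3.02, and the dimmest changed by 0.76 and was not called (adjusted p = 0.632). In resistant tumor the same probe sets changed by 1.30, 0.94 and 0.84, and of these the first was called (adjusted p = 0.039).

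Brca2, whose protein acts at the trimmed ends, gave 135, 139 and 144 in normal thymus, 248, 304 and 276 in tumor and 227, 263 and 294 in resistant tumor. All 6 tumor arrays lay above the normal ones, and the tumor groups overlapped. It rose by 0.98 ± 0.13 in tumor (limma adjusted p = 0.000302) and by 0.90 ± 0.13 in resistant tumor (adjusted p = 0.000529). Palb2, the bridge between BRCA1 and BRCA2, ranged from 70.3 to 82.9 in normal thymus to 107 to 122 in tumor and 97.5 to 103 in resistant tumor. Its groups were ordered without overlap, but the change was called in tumor (0.54, limma adjusted p = 0.00922) and missed the threshold in resistant tumor (0.36, adjusted p = 0.0525; 0.018 with the spike-in block). Brip1, a helicase that binds BRCA1, was not called in either comparison. Its signals followed the spike-in sets: 69.8, 31.3 and 30.7 on tumor arrays 1 to 3 and 63.3, 68.1 and 36 on resistant tumor arrays 1 to 3, with the low values on the arrays with spike-in signal.

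Of the strand exchange factors, 4 of 5 tested genes rose in both tumor groups (23.3% and 23.1% over all genes). Rad54l, a motor protein that remodels DNA during strand exchange, had signals of 151, 186 and 185 in normal thymus, 244, 314 and 268 in tumor and 288, 300.4 and 303 in resistant tumor. The normal arrays lay below all tumor arrays, and the tumor groups overlapped. The rise was 0.66 ± 0.13 in tumor (limma adjusted p = 0.00321) and 0.78 ± 0.13 in resistant tumor (adjusted p = 0.00133). Its 3 dimmer probe sets changed by 0.88 to 1.21 in tumor and by 1.29 to 1.47 in resistant tumor, and all but the smallest of these 6 changes were called among all probe sets. Rad54b, a relative of Rad54l, read 40.6, 54.1 and 50.6 in normal thymus, 81.9, 93 and 71 in tumor and 88.4, 66.8 and 89.3 in resistant tumor. It too separated normal from tumor arrays, with rises of 0.76 ± 0.19 (adjusted p = 0.0102) and 0.75 ± 0.19 (adjusted p = 0.0112).

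Rad51ap1, whose protein binds DNA and acts in strand pairing, showed signals of 375, 410.0 and 406 in normal thymus, 589, 671 and 559.5 in tumor and 597, 636 and 705 in resistant tumor. No tumor array overlapped the normal ones. Rad51ap1 rose by 0.61 ± 0.11 in tumor and by 0.70 ± 0.11 in resistant tumor (limma adjusted p = 0.00176 and 0.000783). Of its 3 dimmer probe sets, 1 was called in both comparisons (0.45 and 0.47), and 2 were called in neither (0.20 and 0.45 in tumor, 0.38 and 0.83 in resistant tumor). Xrcc3, which acts in recombination, stood at 53.6, 52.4 and 46.9 in normal thymus, 75.8, 88 and 84.9 in tumor and 75.1, 91 and 82.8 in resistant tumor. The tumor groups covered almost the same range, above all normal arrays, and the changes were 0.70 ± 0.15 and 0.70 ± 0.15 (limma adjusted p = 0.00459 and 0.00463). Its other probe set changed by 0.83 and 0.80. Rad51c, whose protein forms a complex with XRCC3, overlapped between all groups (27.2 to 49.8 in normal thymus, 42.2 to 51.9 in tumor) and was not called.

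**Figure D2:**
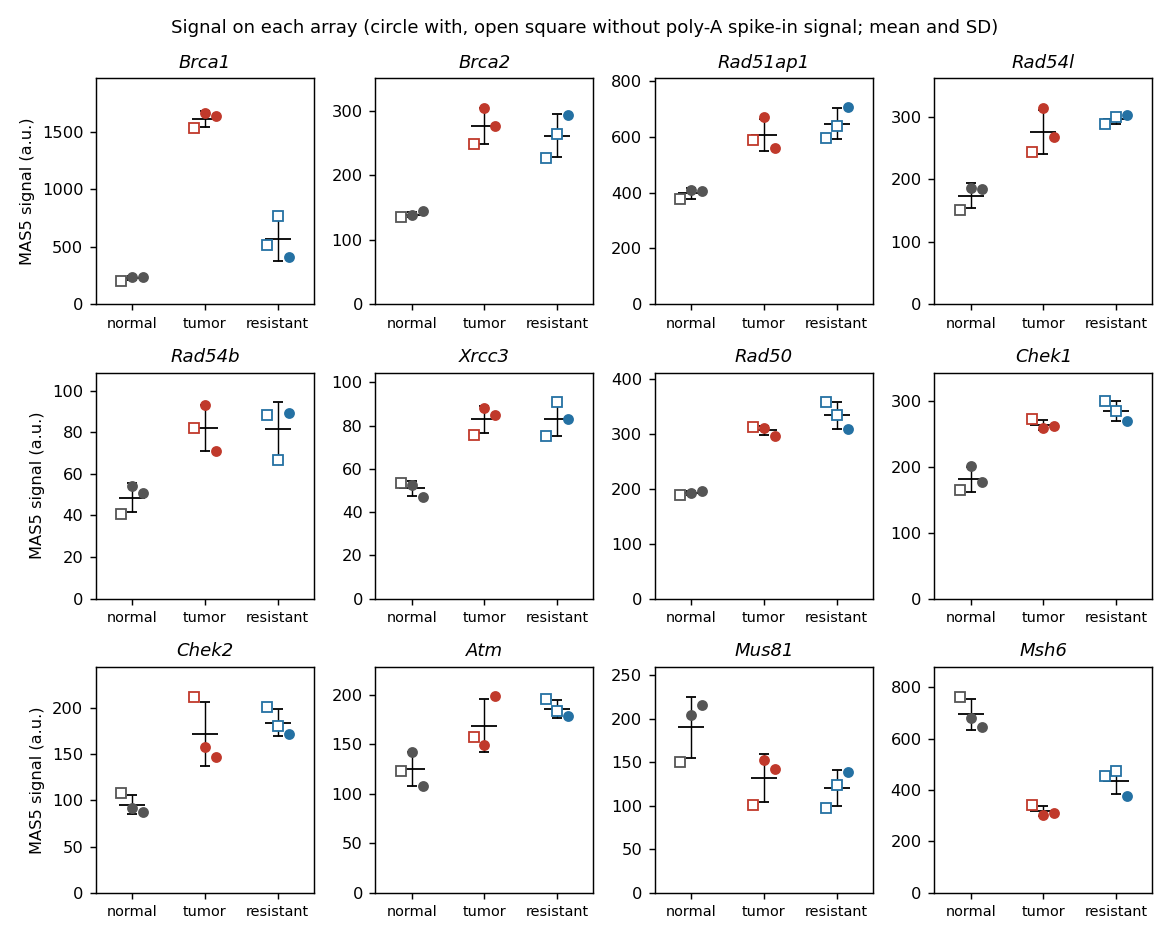
MAS5 signal (vertical axes from 0, arbitrary units) of 12 repair genes on each array of normal thymus, tumor and resistant tumor, with the mean and SD of the 3 arrays of a group; open squares are arrays without spike-in signal. Brca1 separates the 3 groups, Msh6 and Mus81 have lower means in the tumor groups, and the other genes shown are higher there with overlapping tumor groups.

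Of the genes that sense and trim broken ends, 1 of 4 tested rose in both tumor groups. That share lies near those over all genes (23.3% and 23.1%). Rad50, the coiled-coil arm of the complex that holds broken ends, had signals of 188, 193 and 195 in normal thymus, 312, 311 and 296 in tumor and 359, 334 and 309 in resistant tumor. Normal thymus arrays agreed closely and lay far below the tumor arrays. The rise was 0.67 ± 0.10 and 0.80 ± 0.10 (limma adjusted p = 0.000665 and 0.000252). Its partner Nbn was not called, with 0.35 in tumor and 0.59 in resistant tumor (limma adjusted p = 0.23 and 0.0541; 0.0488 in resistant tumor with the spike-in block). The nuclease gene Exo1 was, in the tumor groups, high on the arrays without spike-in signal, at 245, 168 and 152 in tumor and 276, 266 and 167 in resistant tumor, against 141 to 176 in normal thymus. Without resistant tumor 3, Nbn and Exo1 were called higher in resistant tumor (limma adjusted p = 0.0138 and 0.0163). The helicase gene Blm changed by 0.07 and 0.28 and was not called, except in resistant tumor with the spike-in block (limma adjusted p = 0.0469).

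Of the nucleases that resolve joined DNA molecules, Mus81 fell in resistant tumor. Its signals were 151, 205 and 216 in normal thymus, 100.4, 153 and 142 in tumor and 97.9, 124 and 139 in resistant tumor, with array 1 the lowest in each group. Normal thymus and resistant tumor did not overlap, and normal thymus and tumor did. The change was -0.66 ± 0.21 in resistant tumor (limma adjusted p = 0.031) and -0.54 ± 0.21 in tumor, where it missed the threshold (adjusted p = 0.0692). Mus81 was called in tumor with same-numbered arrays paired in a fit of normal thymus and tumor alone (limma adjusted p = 0.00272). With the array number as a block over all groups it was also called (0.00495). The spike-in block (0.00266) and leaving out normal thymus 1 (0.0357) gave the call as well. In normal thymus and tumor, array 1 lacked spike-in signal and arrays 2 and 3 had it. Fits by array number and by spike-in set are therefore not independent of each other. The call in resistant tumor was lost without normal thymus 2 (0.104), normal thymus 3 (0.114), resistant tumor 1 (0.097) or resistant tumor 2 (0.064), with every probe set fitted (0.0642) and without a filter (0.0519). Eme1, which forms a nuclease with MUS81, and Slx4, the scaffold of these nucleases, changed by 0.36 and 0.35 in tumor. Neither was called there without a block, and both were with the spike-in block (limma adjusted p = 0.0249 and 0.0205). The block also called Eme1 higher in resistant tumor (0.0343).

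The 9 Fanconi anemia genes comprise the core complex and its targets. In the core complex, which attaches ubiquitin to FANCD2 and FANCI at a crosslink, 1 of 7 genes rose in tumor and 2 of 7 in resistant tumor. Those shares lie near the ones over all genes (23.3% and 23.1% called higher). Fanca ranged over 105 to 135 in normal thymus, 153 to 207 in tumor and 165 to 213 in resistant tumor, without overlap of normal and tumor arrays. It rose by 0.53 and 0.69 (limma adjusted p = 0.029 and 0.00915). Fancc rose in resistant tumor (0.58, limma adjusted p = 0.035) and changed by 0.43 in tumor (adjusted p = 0.0968; 0.0187 with the spike-in block, and 0.0331 when arrays of the same number were paired in a fit of normal thymus and tumor alone). In that paired fit Slx4 was also called in tumor (0.0381). The other Fancc probe sets past the filter changed by 0.14 and 0.41 in tumor and by 0.09 and 0.74 in resistant tumor, none called among all probe sets. Fancb, Fancf, Fancg, Fancm and Fancl, the ubiquitin ligase of the core, were not called, with changes of -0.30 to 0.23 in tumor and -0.15 to 0.26 in resistant tumor. With the spike-in block Fancg was called higher in resistant tumor (limma adjusted p = 0.0383). Of the ubiquitin targets, Fancd2 rose by 0.42 in tumor and 0.62 in resistant tumor (limma adjusted p = 0.0418 and 0.00693). The other Fancd2 probe set past the filter changed by 0.28 and 0.42 and was not called (limma adjusted p = 0.452 and 0.221). Fanci rose in resistant tumor by 0.45 (limma adjusted p = 0.0271), and its change of 0.31 in tumor was not called (adjusted p = 0.101; 0.0373 with the spike-in block).

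Several of the Fanconi calls were lost when 1 array was left out. In tumor, Fanca was no longer called without normal thymus 2, normal thymus 3 or tumor 1 (limma adjusted p = 0.0825, 0.11 and 0.0871). Fancd2 was not called without any 1 of normal thymus 1, 2 or 3 or of tumor 2 or 3 (0.0694, 0.119, 0.112, 0.0771 and 0.144). In resistant tumor, Fancc was not called without normal thymus 2 or 3 or resistant tumor 1 or 2 (0.138, 0.0759, 0.0931 and 0.102). Fanci was not called without the same 4 arrays (0.0606, 0.106, 0.0579 and 0.0647). Other settings also ended calls. In tumor, Fanca was lost with every probe set fitted (limma adjusted p = 0.0509), and Fancd2 with the mean over probe sets (0.0973), without a filter (0.0518) and after quantile normalization (0.0553). In resistant tumor, Fancc was lost with every probe set fitted (0.0593), with the mean over probe sets (0.289) and without a filter (0.0571).

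Of the 4 checkpoint kinase genes, 3 rose in both tumor groups (23.3% and 23.1% over all genes). Chek2, the kinase that acts below ATM, had signals of 108, 91.3 and 87.2 in normal thymus, 212, 157 and 147 in tumor and 200.3, 179.8 and 172 in resistant tumor. All tumor arrays exceeded the normal ones, and tumor 1 was the highest. The rise was 0.84 ± 0.17 and 0.95 ± 0.17 (limma adjusted p = 0.00282 and 0.00143). Chek1, the kinase that acts below ATR, read 165, 201 and 177 in normal thymus, 272, 258 and 261 in tumor and 299, 284 and 269 in resistant tumor. The normal arrays again lay below all others. It rose by 0.55 ± 0.11 and 0.66 ± 0.11 (limma adjusted p = 0.0037 and 0.00145), but of its 4 dimmer probe sets the 2 that passed the filter changed by -0.12 and 0.24 in tumor and by 0.23 and 0.41 in resistant tumor, none called. With the mean over its probe sets, the call in tumor was lost (limma adjusted p = 0.217).

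Atm, the kinase that answers double-strand breaks, gave 124, 143 and 108 in normal thymus, 158, 149.7 and 199 in tumor and 196, 184 and 178 in resistant tumor. The lowest tumor array lay just above the highest normal array, so the groups were separate by a narrow margin. Atm rose by 0.43 ± 0.15 in tumor (limma adjusted p = 0.0454) and by 0.58 ± 0.15 in resistant tumor (adjusted p = 0.0125). The tumor call was lost without normal thymus 1, normal thymus 3, tumor 1 or tumor 3 (0.0916, 0.166, 0.0537 and 0.169), and the resistant tumor call without normal thymus 3 (0.0579). The tumor call was also lost with the mean over probe sets (0.172), with every probe set fitted (0.0671), without a filter (0.0568), without the intensity trend (0.0529) and in a fit of the 2 groups alone (0.0635). The other Atm probe set changed by 0.30 and 0.62 and was not called (limma adjusted p = 0.673 and 0.299). Atr, which answers stalled replication, was not called (0.14 and 0.25), with signals of 104, 105 and 105 in normal thymus and 145, 105 and 99.9 in tumor.

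Msh6, whose protein recognises mismatched bases, fell in both tumor groups. Its signals were 762, 681 and 645 in normal thymus, 343, 304 and 309 in tumor and 454, 475 and 377 in resistant tumor. The 3 groups did not overlap, with resistant tumor between the others. Msh6 fell by 1.13 on the log2 scale in tumor (SE 0.12, limma adjusted p = 8.08e-05) and by 0.68 in resistant tumor (SE 0.12, adjusted p = 0.00165). Within the arrays without and with spike-in signal its tumor changes were -1.15 and -1.11, the first from tumor 1 and normal thymus 1 alone.

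**Figure D3:**
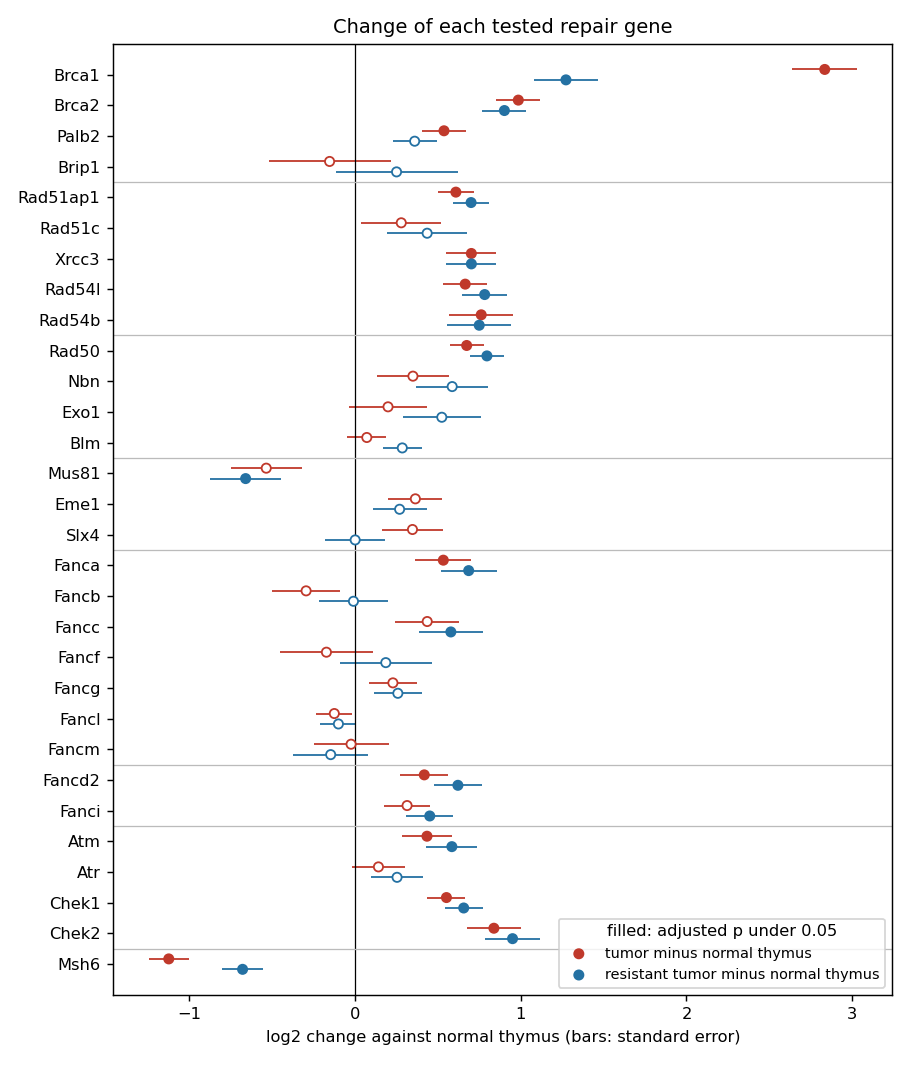
Log2 change of each tested repair gene in tumor (red) and resistant tumor (blue) against the same 3 normal thymus arrays, with the standard error from limma; filled points have an adjusted p under 0.05. Most called changes lie between 0.42 and 0.98, Brca1 in tumor reaches 2.83, and Msh6 and Mus81 lie below 0.

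When resistant tumor was set against tumor, the gene called was Brca1. It was lower by 1.56 ± 0.19 on the log2 scale (-1.56 ± 0.19, limma adjusted p = 0.0125), with mean signals of 564 ± 184 (SD, n = 3) in resistant tumor and 1611 ± 69.3 (SD, n = 3) in tumor. The difference was -1.29 within the arrays without spike-in signal and -2.01 within those with it, and the adjusted p was 0.00378 with the spike-in block. The first of these differences rests on tumor 1 alone for tumor, and the second on resistant tumor 3 alone for resistant tumor. The call was lost without tumor 2 (0.0909) or tumor 3 (0.0668), in a fit of the 2 tumor groups alone (0.0892), with every probe set fitted (0.0622), with equal array medians (0.112) and with the mean over probe sets (0.313). Its 3 other probe sets differed by -1.57, -2.08 and 0.09, none called when every probe set was fitted. The number of genes called over the whole array in this comparison was 42, and it ranged from 8 without tumor 2 and 10 without tumor 3 to 70 without resistant tumor 3.

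The other 29 genes were not called between the tumor groups, with differences of -0.35 (Slx4) to 0.45 (Msh6) and standard errors of 0.10 to 0.37. These misses do not show that the levels were equal. Msh6 was higher in every resistant tumor array than in any tumor array (0.45 ± 0.12, limma adjusted p = 0.265), and it passed the threshold with the spike-in block (0.0489), where 0.523% of all genes were called higher and 0.703% lower. Blm was also higher without overlap and Palb2 lower without overlap, against a background of 4.41% higher and 6.01% lower. The median difference of the members was 0.12 against -0.02 over all genes, and -0.13 with equal array medians, a scaling that shifted every difference by -0.25. Brca2, the functional partner of Brca1, differed by -0.08 and Xrcc3 by 0.00.

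**Figure D4:**
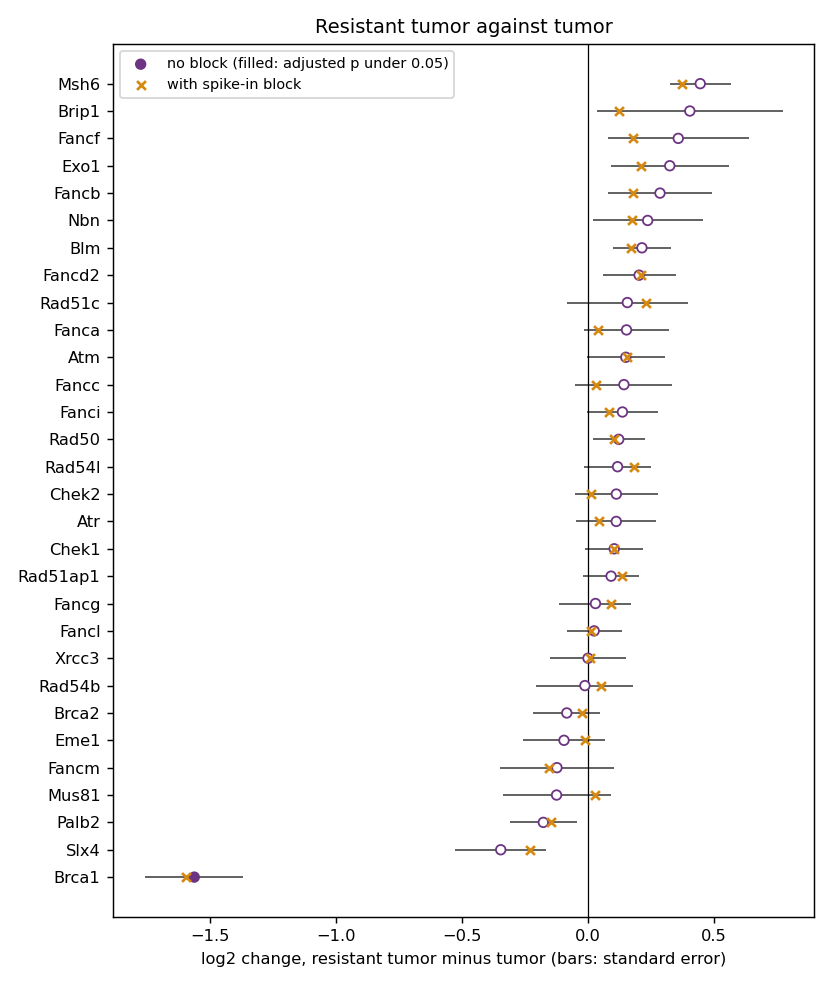
Log2 difference of each tested repair gene, resistant tumor minus tumor, with the standard error from limma (circles) and the value with the spike-in block (crosses). Brca1 lies at -1.56, and the other 29 genes lie between -0.35 and 0.45.

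Brca1 was then set beside its neighbours on chromosome 11, in the gene order of RefSeq (GRCm38.p6); they were looked at after the values of Brca1 had been seen. The gene immediately next to Brca1 on one side is Rnd2, which encodes a small GTPase. Its signals were 56.6, 54.2 and 63.1 in normal thymus, 2682, 3193 and 3341 in tumor and 904, 2014 and 778 in resistant tumor. It followed the same order of groups without overlap, and within resistant tumor array 2 was the highest for both genes. Rnd2 rose by 5.72 ± 0.30 in tumor and 4.28 ± 0.30 in resistant tumor (limma adjusted p = 1.06e-06 and 5.96e-06). Its difference between the tumor groups was -1.44 ± 0.30 and was not called (adjusted p = 0.116; 0.0409 with the spike-in block).

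Vat1, the next gene on that side, showed 544, 311 and 302 in normal thymus, 2673, 1992 and 1787 in tumor and 1348, 2080.1 and 896 in resistant tumor, with resistant tumor 2 again the highest of its group. It rose by 2.51 and 1.87 (limma adjusted p = 0.00021 and 0.00123). The difference of Vat1 between the tumor groups was -0.64 and was not called (limma adjusted p = 0.739; 0.0254 with the spike-in block). On the other side, the autophagy receptor gene Nbr1 read 586, 552 and 563 in normal thymus, 595, 578 and 575 in tumor and 514, 525 and 463 in resistant tumor. Nbr1 was not called in either comparison with normal thymus (0.04 and -0.18), but in resistant tumor it lay below all normal thymus arrays and was called lower with the spike-in block (limma adjusted p = 0.0255). Beyond Nbr1, Tmem106a was called higher in both tumor groups (0.76 and 0.82, limma adjusted p = 0.0117 and 0.0083). So was Etv4 (0.00771 and 0.0454), at 1.09 to 5.96 in normal thymus, 22.4 to 36.9 in tumor and 5.17 to 39.1 in resistant tumor. Etv4 lay under the array median on all normal thymus arrays, so it passed the filter only through the tumor groups. Of the 20 genes within 10 places of Brca1, 14 were tested, of which 6 rose and none fell in tumor, and 6 rose and 1 fell in resistant tumor. Over all genes tested, 23.3% and 23.1% rose and 19.1% and 20.2% fell. Around Msh6, 9 of 20 neighbours were tested, and 3 rose and 1 fell in each tumor group. No cause of the shared pattern of Brca1 and Rnd2 was tested.

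**Figure D5:**
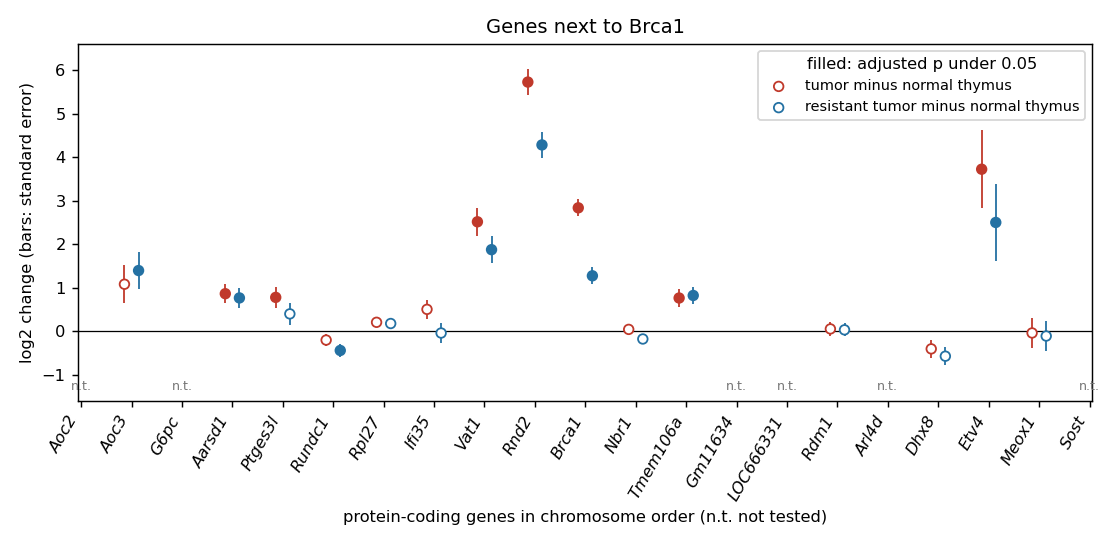
Log2 change against normal thymus in tumor (red) and resistant tumor (blue), with standard errors, for Brca1 and the 10 genes on either side in chromosome order; filled points have an adjusted p under 0.05. Vat1, Rnd2 and Brca1 are high in both tumor groups, with Rnd2 at 5.72 and 4.28. On the other side Nbr1 lies at 0.04 and -0.18, and beyond it Tmem106a and Etv4 are filled above 0 in both tumor groups.

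The rest of the pathway was read from a list made by function. It named 67 further recombination, crosslink repair and damage signalling genes, of which 62 were tested. In tumor 15 of them rose and 3 fell, with a median change of 0.09, and in resistant tumor 16 rose and 3 fell, with a median of 0.04. These shares, 15 and 16 of 62 higher, lie near those over all genes (23.3% and 23.1% higher), and 3 of 62 fell in each, against 19.1% and 20.2%. Mnd1, known for its role in meiotic recombination, was at least 2.48-fold higher in tumor and at least 2.15-fold higher in resistant tumor (limma adjusted p = 0.000195 and 0.000442). These are lower bounds, since Mnd1 lay under the array median on all normal thymus arrays. Mnd1 therefore passed the filter only through the tumor groups, where it was higher, so its adjusted p gives no independent support for the rise. Psmc3ip, the partner of MND1, rose by 0.70 and 1.0005, and Mcm8, a helicase subunit that acts in recombination, by 0.69 and 0.999. Babam2, a subunit of a BRCA1 complex that removes ubiquitin, rose by 1.003 and 1.001. Dna2, a nuclease of end resection, rose by 0.88 and 0.85, and Faap100, a core Fanconi subunit, by 0.95 and 0.69.

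Among the falls, Dmc1, which acts in meiotic recombination, was at least 1.77-fold lower in tumor (limma adjusted p = 0.01), where it lay under the array median. Dmc1 passed the filter only through normal thymus or resistant tumor arrays, so this adjusted p gives no independent support for the fall. Uimc1, which brings the BRCA1 deubiquitinase complex to damaged chromatin, fell by 0.68 and 0.66, and Smc5, a subunit of a chromosome structure complex, by 0.59 and 0.72. Eme2, an alternative partner of MUS81, fell by 0.64 in resistant tumor. Between the tumor groups limma called 0 of the 62 genes, and 0 had an unadjusted p under 0.05.

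Genes of DNA replication and of mitosis were read beside the repair genes because recombination is tied to the cell cycle. Of 20 replication genes, limma called 12 higher and 0 lower in tumor and 13 higher and 0 lower in resistant tumor (at an unadjusted p under 0.05, 14 and 15 higher and 0 lower), with median changes of 0.54 and 0.59. Tk1, a thymidine kinase, rose by 1.22 and 0.90, and Gins2, a subunit of the replicative helicase, by 1.03 and 1.13. Of 19 mitosis genes tested, 1 rose (Aurkb, 0.33) and 2 fell (Cenpe, -0.46, and Cdc20, -0.38) in tumor, and 3 fell in resistant tumor (Aurka, -0.45, Cdc20, -0.37, and Cenpe, -0.37). Their median changes were -0.16 and -0.17. Over all genes tested, 23.3% were called higher and 19.1% lower in tumor, and 23.1% and 20.2% in resistant tumor. With the mean over probe sets, limma called 1 mitosis gene, higher, in tumor and 2 higher and 1 lower in resistant tumor. Leaving out 1 array, the mitosis calls varied from 1 to 4 in tumor (1 without normal thymus 3 or tumor 3, 2 without normal thymus 2 or tumor 2). In resistant tumor they varied from 1 to 5 (5 without normal thymus 1, 2 without resistant tumor 3, and 1 without normal thymus 2, normal thymus 3 or resistant tumor 2). Between the tumor groups limma called 0 genes of either list, and at an unadjusted p under 0.05 it found 1 replication gene lower and 0 mitosis genes. The part of the cell cycle in the changes of the repair genes was not tested.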

How the data were processed

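Biotin-labelled total RNA was hybridised to 9 Affymetrix Mouse430_2 arrays, per the labels' protocols. The deposited intensity values, linear signals for 45101 probe sets, come from MAS5 per the submitters' processing notes, its version, scaling target and detection calls being not given in the sources used here. Precision is limited by the number of arrays.

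Of the probe sets, 34945 had 1 symbol in the platform gene table, and the others stayed out. Signals below 1 were raised to 1 before taking log2, and the arrays were not rescaled. The filter of 3 arrays at or above their own medians left 20917 probe sets and 11671 genes, of which 5427 had more than 1 probe set and were represented by the brightest in mean log2 signal. Group means were modelled with limma 3.58.1 (R 4.3.3), an intensity trend in eBayes, two-sided contrasts and 6 residual degrees of freedom. Values of further probe sets come from a separate fit of the 34945, unfiltered. "At least N-fold" is used for a gene below the array medians throughout a group: each dim array enters at its own median or at the gene's signal, whichever is higher.

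The members and lists were chosen with earlier results of these data known, and no list was tested as a set. Every member is named. Per-array signals are given for members called between the tumor groups, for the 8 largest called, non-overlapping changes in each comparison with normal thymus, for up to 4 members called lower, and for Brca1, Brca2, Atm and Chek1. Of the other pathway genes, up to 4 rises and 4 falls are named in each comparison with normal thymus. Values of Brip1, Exo1 and Atr by array, the replication and mitosis genes named, and the neighbouring genes were picked after their values were seen.

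In tumor 1 the 64 control rows were ordered differently (correlation with the other arrays -0.295, and 0.907 once sorted by name), so they were sorted before the spike-in sets were read. Deviations of same-numbered tumor and normal thymus arrays from their group means correlated at 0.654, 0.371 and 0.411, and a fit with those numbers as pairs was run. Arrays 2 and 3 correlated across numbers as well (0.449 and 0.362). In both groups array 1 lacked spike-in signal and arrays 2 and 3 had it. The correlations therefore cannot tell pairs from spike-in sets, and whether the arrays were pairs is not known. For resistant tumor, same-numbered arrays correlated at 0.433, -0.337 and 0.50 with normal thymus and at 0.548, -0.301 and 0.571 with tumor, and were not taken as pairs. Resistant tumor 2, without spike-in signal, correlated with normal thymus 1 (0.417) and tumor 1 (0.532).

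In data simulated for 11671 genes, 200 were changed per comparison, and noise was drawn independently by gene and array without spike-in set differences. For tumor against normal thymus, 48% of log2 changes of size 1 and 88% of size 3 were recovered and 8.11% of calls were false. For resistant tumor against tumor the shares were 55%, 94% and 5.70%, and for resistant tumor against normal thymus 47%, 83% and 5.80%. In the real data 42.4% and 43.3% of genes were called in tumor and resistant tumor against normal thymus. The simulated shares therefore do not give the recovery or the false calls of those comparisons. The alternatives were quantile normalization, equal array medians, an offset of 50, no filter, a stricter filter (percentile 75), no trend, the mean over probe sets, every probe set, the 2 groups alone, the replicate number or the spike-in set as a block, each spike-in set alone, and each array left out. Searches used Python 3.11.15, and plots matplotlib 3.10.9.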

Additional observations from a re-analysis of the deposited data

Results flagged for a closer look

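Brca1 was the 1 member whose change against normal thymus differed between the tumor groups by a test of the difference itself. The change was 2.83 in tumor and 1.27 in resistant tumor, and the difference, resistant tumor minus tumor, was -1.56 (limma adjusted p = 0.0125). All 3 resistant tumor arrays lay below all 3 tumor arrays. Both changes share the 3 normal thymus arrays. The call on the difference was lost without tumor 2 (limma adjusted p = 0.0909) or without tumor 3 (0.0668). It was also lost in a fit of the 2 tumor groups alone (0.0892) and with every probe set fitted (0.0622). Equal array medians (0.112) and the mean over probe sets (0.313) ended it as well. The groups of 3 arrays are too small for a test of single outlying arrays.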

How the results depend on the processing

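No member changed direction while called in both settings, but mitosis gene calls shifted from 0 higher and 3 lower in resistant tumor to 2 higher and 1 lower with the mean over probe sets. With equal array medians, all genes called numbered 2256 in tumor, 2015 in resistant tumor and 18 between the tumor groups. Members called then numbered 3, 2 and 0, other pathway genes 7 and 1, replication genes 2 and 1, and mitosis genes 0 and 0, and the members' median was 0.54 in tumor and -0.13 between the tumor groups. With an offset of 50 the median was 0.23 in tumor and 0.32 in resistant tumor. Within the arrays without spike-in signal it was 0.50 and 0.56, and within those with it 0.33 in resistant tumor. Between the tumor groups, all genes called numbered 7 with every probe set, 27 with the mean over probe sets, 22 without a filter, 23 with the stricter filter, 8 with the 2 groups alone, 92 with the replicate block and 143 with the spike-in block. Members called there numbered 0 with every probe set, the mean over probe sets or the 2 groups alone, and 2 with the spike-in block. Mitosis genes called in tumor numbered 1 with the mean over probe sets, 5 with the replicate block, 7 with that block in the 2 groups alone and 7 with the spike-in block. In resistant tumor they numbered 5 with the replicate block and 6 with the spike-in block. In tumor the replicate block added Mus81, and in the 2 groups alone also Fancc and Slx4, and changed no other member's call. It also called Nbn and Palb2 in resistant tumor (limma adjusted p = 0.0452 and 0.04999). The cause of these differences was not tested.

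Leaving out 1 array at a time, all genes called ranged over 3878 to 5064 in tumor, 3818 to 4785 in resistant tumor and 8 to 70 between the tumor groups. Members called ranged over 11 to 13, 12 to 18 and 0 to 1, and their medians over 0.30 to 0.42, 0.44 to 0.58 and 0.07 to 0.15. Other pathway genes ranged over 13 to 17 and 12 to 18, replication genes over 9 to 12 and 11 to 13, and mitosis genes over 1 to 4 and 1 to 5, with 0 of each between the tumor groups. Low signals, without detection calls, limit the reading of Bard1 and of dim probe sets.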
